A study of Mus musculus with 8 samples.

Results

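The genes described here are 36 cell cycle and DNA replication genes, measured by RNA sequencing in whole peripheral blood of mice after restraint. They were picked by gene symbol as known members of the mitotic and DNA replication machinery, and all 36 were found among the 21878 gene symbols of the count table. A gene was tested only where 4 or more of the 8 samples held 10 counts or more, which left 31 of the 36 genes and 11718 symbols in all. Blood came from female wild-type (WT) C57BL/6 mice of 6 to 8 weeks. The stress group (n = 4) was held in a ventilated restraint tube for 6 h, and the control group (n = 4) consisted of littermates that stayed in their cage, while both groups went without food and water for that time. No stated source says whether each library came from 1 mouse, so the p-values measure the spread between these samples only.

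A cell divides by first licensing its replication origins, then copying its DNA, and then separating the copies in mitosis. Cdt1 and Cdc6 load the ring of Mcm2 to Mcm7 onto the origins, Pcna clamps the polymerases to the DNA, and Rrm1, Rrm2, Tyms and Tk1 supply nucleotides. Cyclin A2 (Ccna2) and the B cyclins with Cdk1 drive entry into mitosis. Aurora and polo kinases and their partners, the kinesins and the kinetochore proteins build and check the spindle, and Cdc20 and Ube2c direct the anaphase-promoting complex against the cyclins. Most leukocytes in circulating blood are resting cells, while reticulocytes, the youngest red cells, have lost their nucleus but still carry RNA made by dividing erythroblasts in the bone marrow. In bulk blood, more or fewer cells of a type and more or less RNA per cell cannot be told apart.

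Total counts were 31471145 to 39014775 in the control group and 25978683 to 29655725 in the stress group, without overlap (exact two-sided permutation test over 70 assignments, p = 0.0286, the smallest that this design allows). The haemoglobin share of all counts was 51.9% to 63.8% for the control samples and 61.2% to 75.5% for the stress samples (exact permutation p = 0.0571). Stress replicate 3 stood apart, with the highest haemoglobin share and the fewest counts outside haemoglobin, 6355739 against 8782050 to 18774845 in the other samples. Levels are given as CPM, read counts brought to a common library size that is scaled by TMM (a trimmed mean of ratios over genes), and 1 count was worth 0.0145 to 0.0759 CPM. On this scale the log2 fold changes of all tested genes, stress against control, had a median of -0.03, and on total counts alone the median was -0.82, so some directions depend on the scale, and those below refer to TMM where nothing else is said. All 36 genes together held 0.0765% to 0.0964% of the counts outside haemoglobin for the control samples and 0.0875% to 0.105% for the stress samples.

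No gene of the 36 passed the thresholds of the study, an absolute log2 fold change above 1 with an adjusted p below 0.01, in either direction. The same counts of 0 were obtained with DESeq2 and with limma-voom, while 6 genes were higher and 1 was lower at an unadjusted p below 0.05, as were 18.2% and 13% of all tested genes. Over all tested genes, 1.69% were higher and 0.0171% were lower by the thresholds of the study. At an adjusted p below 0.05, 3 of the 31 tested genes rose on the TMM scale (Ccna2, Tpx2 and Ube2c) and none fell, against 10.4% higher and 3.69% lower among all tested genes (edgeR quasi-likelihood test with Benjamini-Hochberg adjustment over all tested genes). The share of 9.68% that rose is near the background and is no result about these genes as a group. In 1 gene, Ccna2, the lowest stress sample was above the highest control sample, and in none were all stress samples below all control samples, against 11.1% and 9.88% of all tested genes.

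**Figure D1:**
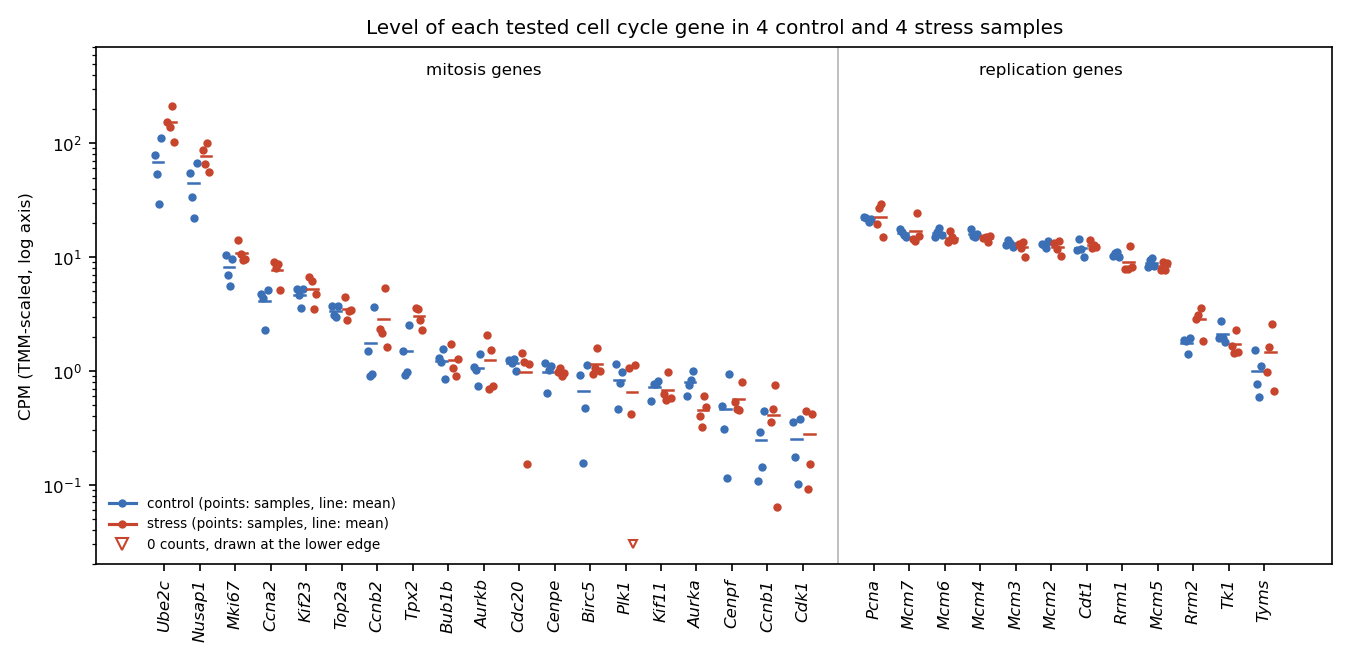
Level of each of the 31 tested genes in CPM on a log axis, with 1 point per sample, control samples in blue, stress samples in red and a line at each group mean. Ube2c and Nusap1 stand far above the other mitosis genes, and the control points of each Mcm gene lie close together. The triangle marks Plk1 in stress replicate 3, where 0 reads were counted.

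The levels of the 31 tested genes spanned a wide range. Per kilobase of exon, and averaged over both groups, the highest level was that of Ube2c, 42.5 CPM per kb, followed by Nusap1 with 15.03 and Pcna with 14.6 CPM per kb. The next levels per kilobase were those of Cdt1 (5.65), Mcm7 (5.62), Mcm4 (4.26), Mcm3 (4.19), Mcm2 (3.75), Mcm6 (3.56) and Mcm5 (2.50). At the low end stood Cdk1, the kinase without which mitosis does not start, with 0.0592 CPM per kb, and Cenpf, a kinetochore protein, with 0.0462 CPM per kb. Ube2c and Nusap1 alone held 68.1% to 81.7% of the summed counts of the 19 tested mitosis genes in the control samples and 81.7% to 88.4% in the stress samples. There were 224 to 307 counts of Ube2c per count of Cdk1 in the control samples and 246 to 1503 in the stress samples, where Cdk1 had only 2 counts in stress replicate 2 and 2 in stress replicate 3.

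Mitosis and replication genes are known for different promoter elements, the cell cycle homology region (CHR, TTTGAA or TTTAAA) and the CCAAT box in the first, and sites of the E2F factors in the second. These words were searched on both strands in the 250 bases before each RefSeq start (GRCm38.p6), in 30 promoters of 29 of the 36 genes. The CHR word was found in 11 of 17 mitosis promoters (64.7%), in 3 of 13 replication promoters (23.1%) and in 25.2% of all 32851 promoters, so the replication genes were near the background. The CCAAT box was found in 88.2%, 69.2% and 33.8%, and 4 exact E2F words of 8 bases were found in 5.88%, 30.8% and 1.86%. The 4 promoter stretches below show the 2 most abundant mitosis genes, Ube2c and Nusap1, beside Mki67 as a mitosis gene with both elements and Mcm6 as a helicase gene. They are the bases before the annotated gene start for Ube2c and part of the window before the RefSeq start for the others. Capitals mark CHR words, CCAAT boxes (ATTGG on the other strand) and E2F words, of which the first pair in Mcm6 overlap.
Ube2c, chr2:164769779-164769897, plus strand: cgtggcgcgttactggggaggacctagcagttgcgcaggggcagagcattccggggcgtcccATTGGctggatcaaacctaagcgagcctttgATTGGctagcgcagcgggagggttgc
Nusap1, chr2:119618148-119618297, plus strand: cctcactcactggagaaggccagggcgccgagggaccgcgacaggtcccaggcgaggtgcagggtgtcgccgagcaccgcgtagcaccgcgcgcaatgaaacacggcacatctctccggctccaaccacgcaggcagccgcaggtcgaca
Mki67, chr7:135716380-135716529, minus strand: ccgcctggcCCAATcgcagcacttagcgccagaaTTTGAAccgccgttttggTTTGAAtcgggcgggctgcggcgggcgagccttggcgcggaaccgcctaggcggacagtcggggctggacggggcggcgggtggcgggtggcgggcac
Mcm6, chr1:128359706-128359855, minus strand: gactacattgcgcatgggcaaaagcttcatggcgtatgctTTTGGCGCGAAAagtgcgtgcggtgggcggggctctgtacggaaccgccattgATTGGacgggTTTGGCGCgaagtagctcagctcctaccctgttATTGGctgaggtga
The stretch of Nusap1 held none of the words, although its level spread over the samples much as that of Ube2c did, and the CHR word of Ube2c lies 29 to 24 bases before its RefSeq start, inside the annotated gene and outside the stretch shown. A word in a promoter is a description of the letters and says nothing of a factor bound there.

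The 5 genes that did not pass the filter had few counts in every sample. Ccne2, cyclin E2, had 14, 8, 15 and 9 counts in control replicates 1 to 4 and 6, 7, 7 and 4 in stress replicates 1 to 4. Bub1, a spindle checkpoint kinase, had 5 to 15 counts in the control group and 2 to 10 in the stress group, and Kif20a, a kinesin of late mitosis, had 7 to 12 and 2 to 8. Cdc6, an origin licensing factor, had 0 to 27 and 0 to 13 counts, and Gins2, a part of the active helicase, had 4 to 21 and 0 to 21. These are raw counts, and the stress samples held fewer counts outside haemoglobin, 6355739 to 11009890 against 11412607 to 18774845 in the control samples. The 5 genes were not tested in the main fit. In the edgeR fit without a filter none of them had an adjusted p below 0.05, and such low counts limit what can be detected.

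Among the mitosis genes, the cyclins and Cdk1 come first by role. Ccna2 (chr3:36564865-36572150, minus strand, GRCm38) had 4.78, 4.41, 2.28 and 5.14 CPM in control replicates 1 to 4 and 9.06, 8.03, 8.73 and 5.15 CPM in stress replicates 1 to 4. The groups did not overlap, but stress replicate 4 lay level with the highest control sample. The group means were 4.15 ± 1.28 and 7.74 ± 1.78 CPM (SD, n = 4 each), and the log2 fold change was 0.90 ± 0.25 (SE, 95% interval 0.36 to 1.44, edgeR adjusted p = 0.0325), against 0.12 on total counts alone. The exons of Ccna2 share 378 bases with Exosc9 on the opposite strand, a gene with 48 to 248 counts, and whether the counting used strand is not given in the sources used here. Other opposite-strand overlaps of exons were those of Nusap1 with Oip5 (172 bases, 5 to 25 counts), Ube2c with Tnnc2 (592 bases, 0 to 3 counts), Mcm7 with Ap4m1 (321 bases, 23 to 227 counts) and Cops6 (64 bases), Cdc20 with Elovl1 (53 bases), Tk1 with Afmid (83 bases) and Plk1 with Gm44985 (156 bases). Of the genes that were not tested, Gins2 overlapped with Gse1 (2758 bases), Kif20a with Cdc23 (1271 bases) and Ccne2 with Ints8 (336 bases), so the counts of all these genes are uncertain to that extent. The other genes of this role were less abundant and did not pass the test. Ccnb2 had 0.910 to 3.66 CPM in the control group and 1.63 to 5.39 CPM in the stress group, Ccnb1 had 0.109 to 0.442 and 0.0640 to 0.759 CPM, and Cdk1 had 0.101 to 0.378 and 0.0928 to 0.446 CPM. The groups overlapped in all of these 3 genes.

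Ube2c (chr2:164769898-164778822, plus strand), the ubiquitin-conjugating enzyme of the anaphase-promoting complex, had 79.0, 53.5, 29.3 and 112 CPM in the control samples and 154, 139, 214 and 102 CPM in the stress samples. The control samples spread widely, control replicate 4 lay above stress replicate 4, and stress replicate 3 was the highest of all. The means were 68.5 ± 35.5 and 153 ± 46.5 CPM (SD, n = 4 each) and the log2 fold change was 1.16 ± 0.34 (SE, 95% interval 0.41 to 1.91, edgeR adjusted p = 0.0440). As raw counts the groups lay close together, at 2909, 2763, 2025 and 3553 in the control samples and 3449, 3006, 2823 and 3201 in the stress samples, and on total counts alone the log2 fold change was 0.41. The other genes of the checkpoint group did not pass the test. Cdc20, an activator of the same complex, had 1.01 to 1.29 CPM in the control group and 0.152 to 1.43 CPM in the stress group, where stress replicate 3 was the low sample with 2 counts, and Bub1b had 0.852 to 1.56 and 0.911 to 1.74 CPM.

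Among the mitotic kinases and their partners, Tpx2, the spindle protein that activates Aurora A, had 1.49, 0.929, 0.983 and 2.55 CPM in the control samples and 3.57, 3.48, 2.81 and 2.31 CPM in the stress samples (chr2:152847964-152895321, plus strand). Only stress replicate 4 lay within the control range, below control replicate 4. The means were 1.49 ± 0.754 and 3.04 ± 0.596 CPM (SD, n = 4 each), with a log2 fold change of 1.06 ± 0.31 (SE, 95% interval 0.38 to 1.74, edgeR adjusted p = 0.0402) and of 0.33 on total counts alone. Aurka (chr2:172356190-172370535, minus strand), the Aurora A kinase itself, had 0.598, 0.755, 0.838 and 1.01 CPM in the control samples and 0.401, 0.325, 0.607 and 0.480 CPM in the stress samples. Its values lay on the other side, with 3 of 4 stress samples below every control sample, and the log2 fold change of -0.84 ± 0.37 (SE, 95% interval -1.63 to -0.04) did not pass the test (edgeR adjusted p = 0.141). Birc5 (survivin, chr11:117849251-117855743, plus strand) had 0.924, 0.155, 0.477 and 1.14 CPM in the control samples and 0.937, 1.07, 1.59 and 0.993 CPM in the stress samples. The groups overlapped, and the log2 fold change was 0.79 ± 0.50 (SE, 95% interval -0.28 to 1.86, edgeR adjusted p = 0.298). Aurkb had 0.737 to 1.42 and 0.696 to 2.05 CPM, and Plk1 had 0.464 to 1.14 CPM in the control group and up to 1.12 CPM in the stress group. In stress replicate 3 Plk1 had 0 counts, which allows up to 0.228 CPM (3 counts, counting error only).

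Leaving out single samples changed these calls. All 3 genes lost an adjusted p below 0.05 without control replicate 2 or 3 or without stress replicate 1, 2 or 3, and without control replicate 1 the test passed for Ccna2 alone. The adjusted p without each sample in turn ranged from 0.0128 to 0.0868 for Ccna2, from 0.00505 to 0.122 for Tpx2 and from 0.00978 to 0.225 for Ube2c (edgeR), and the log2 fold change kept its sign in each case. Without control replicate 4, 5 of the 36 genes rose, and without stress replicate 4, 4 did. Of all tested genes, 1425 of 11595 and 1330 of 11592 rose in these fits, and 617 of 11531 rose without control replicate 2. Ube2c also lost the call when no filter was applied (adjusted p = 0.174) and when 10 counts were asked of every sample (adjusted p = 0.0593).

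Nusap1 (chr2:119618298-119651244, plus strand), which bundles spindle microtubules, was the most abundant of the kinetochore and spindle genes, with 54.8, 33.6, 22.3 and 66.7 CPM in the control samples and 87.3, 65.5, 100.3 and 55.8 CPM in the stress samples. Stress replicates 2 and 4 lay within the control range. The means were 44.3 ± 20.1 and 77.2 ± 20.3 CPM (SD, n = 4 each), and the log2 fold change of 0.80 ± 0.30 (SE, 95% interval 0.15 to 1.45) did not pass the test (edgeR adjusted p = 0.0919), although it did with DESeq2 (adjusted p = 0.0468). Cenpe and Cenpf, proteins of the kinetochore, had 0.639 to 1.17 and 0.116 to 0.946 CPM in the control group and 0.911 to 1.07 and 0.455 to 0.800 CPM in the stress group. Of the kinesins, Kif23 had 3.54 to 5.24 and 3.49 to 6.65 CPM, and Kif11 had 0.543 to 0.820 and 0.557 to 0.987 CPM.

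Mki67 (chr7:135689784-135716361, minus strand), the gene of the proliferation marker Ki-67, had 10.4, 6.91, 5.55 and 9.62 CPM in the control samples and 14.0, 10.7, 9.41 and 9.67 CPM in the stress samples. Control replicate 1 lay above stress replicates 3 and 4. The log2 fold change was 0.45 ± 0.20 (SE, 95% interval 0.02 to 0.87, edgeR adjusted p = 0.142), and -0.28 on total counts alone. Top2a, which untangles DNA before mitosis, had 3.01 to 3.72 CPM in the control group and 2.78 to 4.51 CPM in the stress group.

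Over the 19 tested mitosis genes, 15 had a log2 fold change above 0 and 4 below 0 on the TMM scale. Of all 11718 tested genes, 5519 lay above 0 and 6199 below 0. The median of the mitosis genes was 0.30, which became -0.34 on total counts alone and -0.03 on total counts outside haemoglobin. The medians of all tested genes there were -0.82 and -0.43. The summed level of the mitosis genes was 75.6 to 218.8 CPM in the control samples and 193.8 to 355.8 CPM in the stress samples. Without Ube2c and Nusap1 the sum of the other 17 genes was 24.1 to 40.0 CPM against 35.5 to 50.7 CPM, and their median log2 fold change was 0.22. Within the control group, replicate 4 was the highest sample in 13 of the 19 genes and replicate 3 the lowest in 9. Within the stress group, replicate 1 was the highest in 9 and replicate 3 in 7 of the 19 genes, but replicate 3 was also the lowest in 7. Without each sample in turn the median of the mitosis genes ranged from 0.076 without control replicate 3 to 0.49 without control replicate 4, with 0.48 without stress replicate 2 and 0.27 without stress replicate 3.

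**Figure D2:**
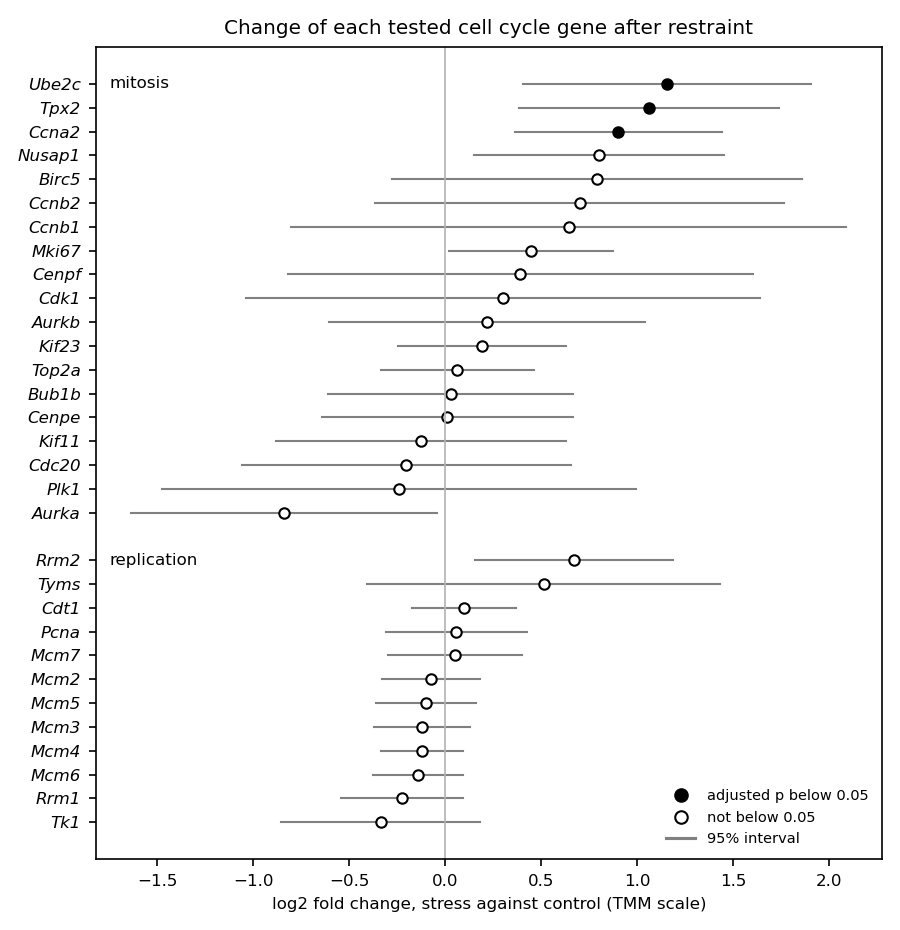
Log2 fold change of each of the 31 tested genes, stress against control on the TMM scale, with its 95% interval; filled points have an adjusted p below 0.05. The 3 filled points are Ube2c, Tpx2 and Ccna2, and the 6 Mcm genes lie between -0.14 and 0.05 with short intervals.

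None of the 12 tested replication genes had an adjusted p below 0.05 in either direction (edgeR), and DESeq2 and limma-voom also called none. Over all tested genes, 10.4% were higher and 3.69% lower by this rule (edgeR). At an unadjusted p below 0.05, 1 of the 12 was higher and 0 were lower (18.2% and 13% over all tested genes). A difference between the replication and the mitosis genes was not tested. Of the 12, 5 had a log2 fold change above 0 and 7 below 0 on the TMM scale, against 5519 and 6199 of all 11718 tested genes. The median of the 12 was -0.09 on the TMM scale and -0.88 on total counts alone. Their summed level was 127.4 to 137.6 CPM in the control samples and 113.3 to 151.3 CPM in the stress samples, so the stress range enclosed the control range. Stress replicate 3 was the highest stress sample in 8 of the 12 genes, and without it the median was -0.09. It was -0.011 without stress replicate 4, -0.050 without control replicate 4, -0.054 without stress replicate 1 and -0.056 without stress replicate 2. On total counts alone 10 of the 36 genes were lower at an adjusted p below 0.05, among them Mcm2 to Mcm7, Pcna, Rrm1 and Tk1, as were 5811 of the 11718 tested genes.

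The 6 genes of the replicative helicase, Mcm2 to Mcm7, were each steady over the control samples, with control means from 8.94 CPM (Mcm5) to 16.3 CPM (Mcm6). Their summed level was 84.4, 85.0, 83.8 and 81.1 CPM in the control samples and 76.8, 78.5, 88.4 and 73.7 CPM in the stress samples. Each of them differed by at most 1.22-fold between the highest and the lowest control sample. Mcm7 had a log2 fold change of 0.05 and the other 5 genes lay below 0, with a range of -0.14 to 0.05 and a median of -0.11 on the TMM scale. Mcm6, for example, had 15.03 to 17.9 CPM in the control group and 13.5 to 16.9 CPM in the stress group, and Mcm4 had 14.99 to 17.6 and 13.6 to 15.2 CPM. Mcm7 had 15.01 to 17.8 CPM in the control group and 13.8 to 15.3 CPM in 3 of the stress samples, while stress replicate 3 had 24.6 CPM. Cdt1, which loads the helicase, had 9.97 to 14.4 and 11.9 to 14.2 CPM. Pcna, the sliding clamp, had 20.5 to 22.6 CPM in the control group and spread from 15.1 to 29.2 CPM in the stress group.

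The nucleotide supply genes differed among themselves. Rrm2 (chr12:24708241-24714146, plus strand), the regulated subunit of ribonucleotide reductase, had 1.88, 1.82, 1.40 and 1.96 CPM in the control samples and 2.85, 3.11, 3.57 and 1.82 CPM in the stress samples. Stress replicates 1 to 3 lay above every control sample and stress replicate 4 lay within the control range. The log2 fold change was 0.67 ± 0.24 (SE, 95% interval 0.16 to 1.19, edgeR adjusted p = 0.0756), -0.16 on total counts alone, and 0.85 without stress replicate 4, where the test passed (adjusted p = 0.0229). Rrm1 (chr7:102441695-102469771, plus strand), the large subunit of the same enzyme, had 10.2, 10.9, 11.03 and 9.999 CPM in the control samples and 7.94, 7.89, 12.5 and 8.20 CPM in the stress samples. Here stress replicate 3 was the highest sample and the other 3 stress samples lay below every control sample. The log2 fold change of -0.22 ± 0.15 (SE, 95% interval -0.54 to 0.10, edgeR adjusted p = 0.326) became -0.38 without stress replicate 3, with an adjusted p of 0.0327. Tyms, thymidylate synthase, had 0.593 to 1.52 and 0.672 to 2.58 CPM, and Tk1, thymidine kinase, had 1.80 to 2.77 and 1.44 to 2.28 CPM.

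Whole blood holds reticulocytes, so the levels were set beside 18 reticulocyte and erythroblast markers, of which 17 were in the table and 16 were tested. Of these 16 markers, 15 had a log2 fold change above 0 and 4 rose at an adjusted p below 0.05 on the TMM scale, with a median of 0.96. Their summed level was 27177, 17235, 12105 and 33609 CPM in the control samples and 43967, 38236, 56810 and 26931 CPM in the stress samples, with an overlap between the groups. Ube2c stood at the same place in the order of the 8 samples as the marker sum in 6 samples, and the 2 others were off by 1 place. Rrm2 likewise had the same place in 6 samples and was off by 1 place in the others, and Nusap1 had the same place in 4 samples and was off by 1 place in the others. Ccna2, Tpx2, Ccnb1 and Ccnb2 were off by 2 places at most, and Birc5 and Tyms by 3. Each of the Mcm genes was off by 4 or more places in at least 1 sample, and so were Cdt1, Pcna, Rrm1 and Tk1. The same held for many mitosis genes, namely Kif11, Cdk1, Mki67, Top2a, Aurkb, Cenpf, Bub1b, Aurka, Cenpe, Cdc20, Plk1 and Kif23. These orders share the libraries and their TMM factors, which ran from 0.507 to 1.77, and the part of red cell RNA in the differences between the groups was not tested.

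**Figure D3:**
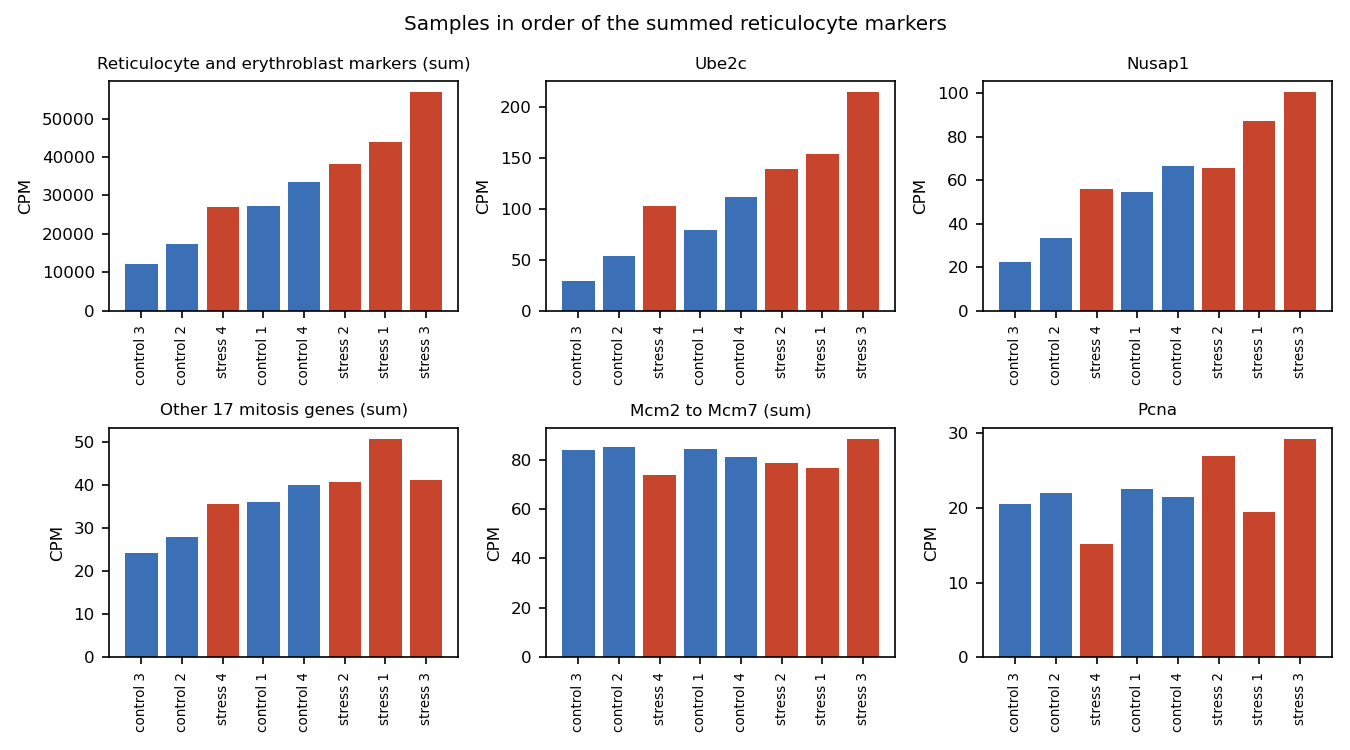
Levels in CPM of the summed reticulocyte and erythroblast markers, Ube2c, Nusap1, the other 17 tested mitosis genes, the 6 Mcm genes and Pcna, as bars from 0. The 8 samples stand in the order of the marker sum in every panel, control in blue and stress in red; the bars of Ube2c and Nusap1 climb nearly in that order, from 29.3 to 214 CPM and from 22.3 to 100.3 CPM, and those of the Mcm genes stay between 73.7 and 88.4 CPM.

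A ratio to the markers within a sample does not depend on the library size. There were 29.1, 31.0, 24.2 and 33.3 counts of Ube2c per 10000 marker counts in the control samples and 35.0, 36.5, 37.7 and 38.1 in the stress samples, with means of 29.4 ± 3.90 and 36.8 ± 1.39 (SD, n = 4 each) and no overlap. For Nusap1 the ratio was 18.4 to 20.1 in the control samples and 17.1 to 20.7 in the stress samples, with means of 19.5 ± 0.769 and 18.8 ± 1.72. Alas2 and Bpgm alone made up 96.1% to 97.5% of the marker counts. Without them the Ube2c ratio was 931 to 987 counts per 10000 marker counts in the control samples and 893, 1206.5, 1513 and 1103 in the stress samples. The means were 960 ± 29.7 and 1179 ± 258 (SD, n = 4 each). Stress replicate 1 lay below every control sample and the other stress samples lay above, so the full separation was not kept without these 2 markers. For the 6 Mcm genes together the ratio to all markers was 24.1 to 69.2 in the control samples and 15.6 to 27.4 in the stress samples. For the ratio of Nusap1 to Ube2c, which uses no marker, the control samples lay at 0.595 to 0.760 and the stress samples at 0.468 to 0.567.

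**Figure D4:**
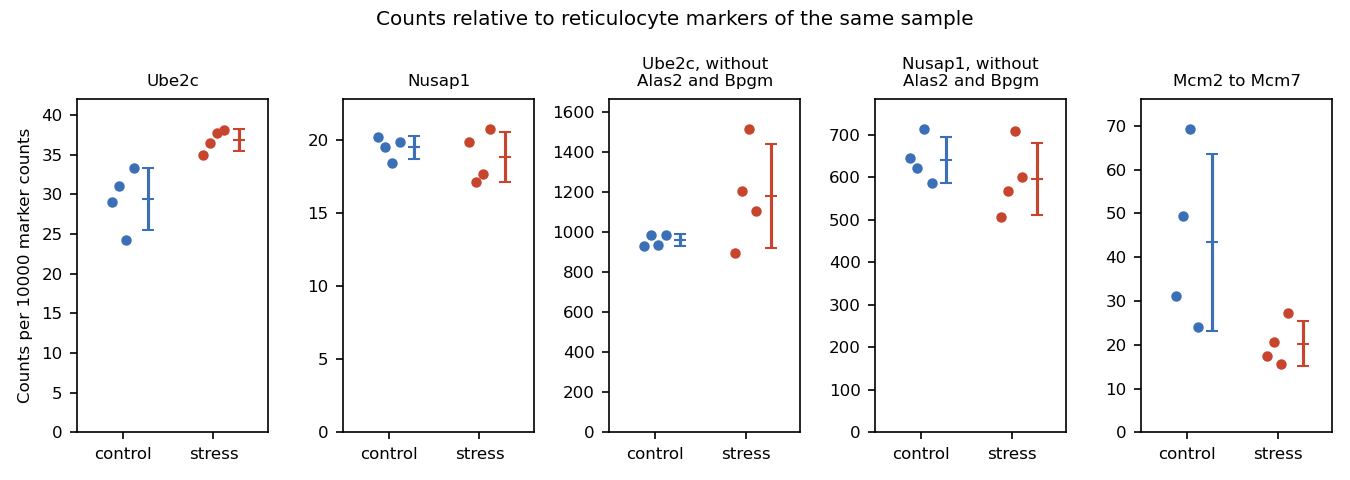
Counts of Ube2c, Nusap1 and the 6 Mcm genes per 10000 counts of reticulocyte and erythroblast markers in the same sample, with all markers and, for Ube2c and Nusap1, without Alas2 and Bpgm. Points are samples, bars are the mean ± SD of 4 samples, and each panel has its own axis from 0; Nusap1 has means of 19.5 and 18.8, and the Mcm genes have 43.4 in the control samples and 20.2 in the stress samples.

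Other blood cells were read from their own marker lists on the TMM scale. Of the early progenitor markers given here, Gata2 rose, with 5.95 to 6.55 CPM in the control samples and 9.84 to 16.3 CPM in the stress samples (edgeR adjusted p = 0.00106), and Flt3 rose, with 0.755 to 1.42 and 1.30 to 3.43 CPM (adjusted p = 0.0272). Kit, a defining receptor of these cells, had 0.568 to 0.951 and 0.152 to 1.22 CPM, Cd34 had 0.246 to 0.757 and 0.232 to 1.06 CPM, Meis1 had 0.813 to 1.17 and 1.12 to 2.23 CPM, and Myb had 3.56 to 5.81 and 2.14 to 4.58 CPM, and these 4 did not pass the test. Of 10 neutrophil precursor markers only 4 were tested and 1 rose (Chil3, which stands in the monocyte list too), and Elane and Mpo, defining granule enzymes, had at most 2 and 8 counts in any sample. The summed level of these 4 was 6.08 to 12.5 CPM and 27.0 to 74.8 CPM, of which Chil3 alone made up 5.21 to 9.53 CPM and 24.0 to 71.8 CPM. Mature neutrophil and monocyte markers rose in 9 of 10 genes each (197.0 to 388.8 against 615.0 to 898.2 CPM, and 368.6 to 503.1 against 760.1 to 1351 CPM), and 12 of 12 platelet markers rose (1665 to 2465 against 3802 to 4394 CPM). Of 12 B cell markers 6 fell (1218 to 1502 against 847.0 to 1103 CPM), while 0 of 12 T cell markers passed the test in either direction (696.2 to 751.1 against 597.2 to 824.8 CPM), 1 of 9 NK cell markers fell (66.2 to 117.7 against 57.9 to 129.9 CPM) and 1 of 7 plasma cell markers rose (58.5 to 64.5 against 57.6 to 71.3 CPM). Of the 4 haemoglobin chains tested, 1 rose.

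The rest of the pathway was read from 5 further lists. Together they gave 6 genes that rose and 4 that fell at an adjusted p below 0.05 on the TMM scale, among 166 tested genes. That is 3.61% higher and 2.41% lower, against 10.4% and 3.69% of all tested genes. Among 54 other mitosis genes, 33 had a log2 fold change above 0 (5519 of 11718 over all tested genes), the median was 0.20, and 2 rose. Nek2, a centrosome kinase, had 0.116 to 0.477 CPM in the control samples and 0.683 to 1.86 CPM in the stress samples, with a log2 fold change of 1.92 ± 0.49 (SE, n = 4 each, edgeR adjusted p = 0.0209). Incenp, the scaffold of the Aurora B complex, had 7.08 to 10.5 and 11.6 to 13.1 CPM, with 0.47 ± 0.13 (adjusted p = 0.0303), but -0.28 on total counts alone.

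Among 63 other replication genes, 38 had a log2 fold change below 0 (6199 of 11718 over all tested genes), the median was -0.15, 1 gene rose and 3 fell. Dut, which clears dUTP from the nucleotide pool, had 9.17 to 11.3 CPM in the control samples and 15.7 to 19.7 CPM in the stress samples, with a log2 fold change of 0.78 ± 0.12 (edgeR adjusted p = 0.00132) and of -0.017 on total counts alone. Rfc1, the large subunit of the clamp loader, had 20.2 to 25.0 and 13.4 to 19.6 CPM, with -0.52 ± 0.13 (adjusted p = 0.0159). Topbp1, a scaffold of replication start and checkpoint, had 26.9 to 30.0 and 15.8 to 24.6 CPM, with -0.49 ± 0.13 (adjusted p = 0.0212). Pole, the leading strand polymerase, had 2.69 to 3.04 and 1.52 to 2.14 CPM, with an adjusted p of 0.0480. The 3 genes that fell had no stress sample within the control range.

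Among the regulators, none of 19 genes of the E2F, Rb and DREAM group passed the test, with 2 higher and 3 lower at an unadjusted p below 0.05 (edgeR). The 2 with the smallest p were Rbl2, a repressor of cell cycle genes in resting cells, with 30.5 to 32.5 and 22.8 to 29.4 CPM (adjusted p = 0.0608), and Tfdp2, a partner of the E2F factors, with 133 to 367 and 328 to 631 CPM (adjusted p = 0.0726). Both passed with DESeq2 (adjusted p = 0.0349 and 0.0202). Tfdp2 was 109 to 129 counts per 10000 marker counts in the control samples and 111 to 126 in the stress samples. Of 11 G1 cyclins and kinases, Ccnd3 rose, with 61.0 to 88.2 CPM in the control samples and 102 to 116 CPM in the stress samples (log2 fold change 0.57 ± 0.13, adjusted p = 0.0141, but -0.19 on total counts alone), and Cdk7, of the kinase that activates the others, fell, with 9.53 to 10.3 and 6.68 to 8.61 CPM (-0.43 ± 0.12, adjusted p = 0.0347). Of 19 inhibitors and quiescence genes, Cdkn2d, an inhibitor of Cdk4 and Cdk6, had 12.5 to 13.6 CPM in the control samples and 20.2 to 25.7 CPM in the stress samples (0.70 ± 0.11, adjusted p = 0.00154, but -0.11 on total counts alone). Gadd45a, a stress-induced growth arrest gene, had 12.6 to 29.9 and 31.6 to 62.8 CPM (1.03 ± 0.26, adjusted p = 0.0245).

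Leaving out each sample in turn, Dut and Cdkn2d had an adjusted p below 0.05 every time (edgeR). Nek2 lost it without control replicate 1 or 2 or stress replicate 4 (0.0553 to 0.0652), Incenp without control replicate 1, 2 or 3 or stress replicate 1 (0.0509 to 0.0986), and Ccnd3 without control replicate 2 or 3 (0.0562 and 0.0650). Rfc1 lost it without control replicate 2 or 3 or stress replicate 2 (0.0528 to 0.0602), Topbp1 without control replicate 1 or 2 or stress replicate 2 (0.0553 to 0.0772), and Gadd45a without control replicate 2 or stress replicate 2 or 3 (0.0631 to 0.150). Pole lost it without any of the 8 samples (0.0521 to 0.141), and Cdk7 without any but stress replicate 4 (0.0580 to 0.111).

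Among the abundant genes of these lists, 4 were singled out after their values were seen, because their sample order resembled that of Ube2c. Cdc25b, a phosphatase that activates Cdk1, had 122 to 371 CPM in the control samples and 338 to 514 CPM in the stress samples, Pttg1 (securin) had 42.8 to 99.3 and 81.1 to 231 CPM, Ube2s, which works after Ube2c on the anaphase-promoting complex, had 20.4 to 49.3 and 41.1 to 84.8 CPM, and E2f2 had 43.2 to 112 and 82.2 to 167 CPM. None of the 4 had an adjusted p below 0.05 (edgeR, 0.0591 to 0.146). Per 10000 marker counts, the stress range of each of them overlapped with its control range, for example with 101 to 120 against 90.5 to 126 for Cdc25b and 29.6 to 35.4 against 30.0 to 40.6 for Pttg1. The order of Ube2c, for which they were chosen, ran close to that of the marker sum. Their overlap per marker count is therefore no separate result, and their ratio without Alas2 and Bpgm was not computed.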

How the data were processed

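Per the labels, RNA of peripheral blood was sequenced after an Illumina TruSeq preparation in 4 control and 4 stress samples. The values deposited by the authors are whole read counts for each gene symbol that have not been normalized. The submitters' processing notes name HISAT2, featureCounts and mm10, with no versions, and the strand setting is not given in the sources used here. All 8 count columns were used, and no 2 samples of the same group agreed within sampling noise.

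A gene needed 10 counts or more in 4 or more samples. The fit used R 4.3.3 and the edgeR 4.0.16 quasi-likelihood test (TMM, robust) and Benjamini-Hochberg adjustment over all 11718 genes left. The code was tested on simulated data. Alternatives used DESeq2 1.42.0, limma 3.58.1 (voom), other scalings and filters, and each sample left out. Of the 36 genes, those with an adjusted p below 0.05 and the 6 others with the smallest p were named in full. Of each pathway list, up to 3 genes that passed in each direction were named, or the 2 with the smallest p. The genes and lists were chosen with earlier results of these data known. Coordinates and exon lengths came from GENCODE M21 (GRCm38) and promoters from RefSeq (GRCm38.p6). Of the early progenitor marker list, 1 tested gene and the summary over the list are not reported here.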

Additional observations from a re-analysis of the deposited data

Results flagged for a closer look

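In 4 of 62 groups of 4 samples tested (2 groups for each of 31 genes), 1 sample lay far from the 3 others by Dixon's criterion, which chance alone meets in about 1 group in 20. Stress replicate 3 was that sample for Rrm1, with 12.5 CPM against 7.89 to 8.20 CPM in the other stress samples, for Mcm7, with 24.6 CPM against 13.8 to 15.3 CPM, and for Kif11, with 0.987 CPM against 0.557 to 0.625 CPM. Control replicate 2 was that sample for Tk1, with 2.77 CPM against 1.80 to 1.95 CPM. Stress replicate 3 also had the fewest counts outside haemoglobin.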

How the results depend on the processing

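Of 396 values recomputed under another setting, 270 kept their direction and their side of the threshold, among them values that passed in neither fit. With the direction kept, 79 lost an adjusted p below 0.05 and 22 gained it. Ube2c lost it in 12 settings, Tpx2 in 11 and Ccna2 in 8. The other 25 values changed sign, all 25 under a scaling that moved the median log2 fold change of all genes from -0.03 to -0.43 or below. On total counts alone (median of all genes -0.82), 0 of the 36 genes rose and 10 fell at an adjusted p below 0.05, and 0 and 78 of the other cell cycle genes did. Of all 11718 tested genes, 52 rose and 5811 fell on this scale. Here Rrm2 had a log2 fold change of -0.16, Mki67 -0.28, Incenp -0.28, Dut -0.017, Ccnd3 -0.19 and Cdkn2d -0.11. Of the scalings chosen after seeing the data, total counts outside haemoglobin gave 1 higher (Ube2c) and 8 lower of the 36, and 3 and 44 of the other genes. Over all 11714 genes tested there, 549 were higher and 3945 lower. Scaling by reticulocyte marker counts gave 0 and 8 of the 36, and 0 and 61 of the others, and the same without Alas2 and Bpgm gave 0 and 9, and 0 and 66. Over all 11718 tested genes, marker scaling gave 15 higher and 4913 lower, and 8 and 5181 without Alas2 and Bpgm. The log2 fold changes were then, with and without those 2 markers, -0.023 and -0.10 for Ccna2, -0.33 and -0.41 for Rrm2, -0.048 and -0.11 for Nusap1, -0.44 and -0.57 for Mki67, -0.028 and -0.094 for Birc5, -0.46 and -0.58 for Incenp, -0.21 and -0.32 for Dut, -0.36 and -0.47 for Ccnd3 and -0.32 and -0.44 for Cdkn2d, and -0.036 without them for Tfdp2. Relative to the median of all genes, 20 of the 31 genes lay above it on the TMM scale and under both total count scalings, and 19 under both marker scalings. DESeq2 called 10 of the other cell cycle genes higher and 7 lower, and 1524 and 596 of all 15930 symbols with a count.

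The same replicate numbers stand in both groups, and the deviations of same-numbered samples correlated at 0.06, 0.0004, -0.04 and -0.16. Such weak correlations cannot show whether same-numbered samples had a litter or a day in common, which the sample titles do not say. With the replicate block 0 of the 36 genes rose (edgeR adjusted p of 0.0583 for Ccna2, 0.0541 for Tpx2 and 0.158 for Ube2c). The median of the mitosis genes was then 0.15, and of the other cell cycle genes 5 rose and 2 fell. Of all 11718 tested genes, 919 rose and 240 fell with the block, against 1222 and 432 without it. Not every sample correlated best with its own number.

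Leaving out each sample in turn gave 0 to 5 of the 36 genes higher and 0 to 1 lower at an adjusted p below 0.05, 0 to 2 higher by the thresholds of the study (2 without control replicate 4), and 2 to 11 of the other genes higher and 0 to 5 lower. Over all tested genes, 617 to 1425 were higher and 81 to 726 lower at an adjusted p below 0.05, against 1222 and 432 with all samples. The cause of these changes was not tested. Genes with few counts, such as Cdk1 with 2 counts in some samples, are limited by depth.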
